A study of Drosophila melanogaster with 21 samples.

Results

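Blood cells of the fly, called hemocytes, are present in the head, and 7 genes used to mark them or to describe their phagocytic surface were followed here across 7 groups of head libraries. The genes were NimC1, eater, Sr-CI, crq, drpr, Hml and He, which are 7 of the 17559 genes counted in each library. NimC1 was selected on its fall in dlg1 flies against Control GD, in these same libraries, and the other 6 were taken as hemocyte markers and phagocytic receptors. Apart from a check of the dlg1 transcript, the values of that contrast are therefore described without a test, and nothing is supported with them.

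Most adult hemocytes are plasmatocytes, macrophage-like cells that take up bacteria and dying cells, while crystal cells carry the enzymes of melanization. Uptake depends on surface proteins of several families. The Nimrod family has a characteristic cysteine-rich repeat and includes NimC1, eater and drpr, the CD36 family includes crq, and the class C scavenger receptors include Sr-CI. Hml and He are not uptake receptors: Hml encodes a large secreted clotting protein and He a surface glycoprotein of hemocytes.

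Heads came from F1 females reared at 25°C and collected in batches of 40 to 50 flies, and every group had 3 libraries, each made from pooled heads. All groups carried Elav-GAL4, a driver active in neurons, so the RNAi lines were directed to neurons and not to the hemocytes in which most of the 7 genes are expressed. Control GD flies had the genotype w1118,Elav-GAL4/w1118 and carried no RNAi line, and the dlg1 (VDRC line 41136) and Fsn (line 26577) groups were in this GD background. Control KK flies (w1118,Elav-GAL4/y1 w1118, from line 60100) matched the Cbp20 group (line 107112). Cbp20/dlg1 and Cbp20/Fsn flies carried the Cbp20 line together with one of the GD lines, and their driver chromosome was marked y1 w1118,Elav-GAL4, so they differed from Cbp20 and Control KK flies in background as well as in the added RNAi line. Effects of the added line and of that background cannot be told apart. The age of the flies is not given in the labels.

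Between 17712938 and 28759171 reads were assigned to genes per library (median 22289840), and no pair of libraries held identical counts. The targeted transcripts were checked first. Cbp20 was at 5.08 to 6.59 CPM (counts scaled to library size) in the 9 libraries with the Cbp20 line and at 14.3 to 14.7 in Control KK. Fsn transcript was at 17.03 to 19.9 CPM in Fsn flies against 26.5 to 29.7 in Control GD. The dlg1 transcript was only a little lower in dlg1 flies, at 338 to 371 CPM against 388 to 411 for Control GD, a difference of -0.19 on the log2 scale with no overlap. It was at 276 to 345 CPM in Cbp20/dlg1 flies against 397 to 416 in Control KK (-0.35, edgeR quasi-likelihood adjusted p = 0.0238). It was also lower in Fsn flies than in Control GD (257 to 367 CPM, -0.31, edgeR adjusted p = 0.0209), where Cbp20 transcript was higher (0.33, edgeR adjusted p = 0.00623). Markers of other tissues also differed between groups. The summed level of 6 antennal genes was 30.4 to 96.9 CPM in Control GD, 6.66 to 23.05 in dlg1, 6.67 to 9.30 in Fsn and 5.63 to 6.42 in Control KK, where Os-C was at 0 in all 3 libraries, and 22.3 to 94.8 in the 3 groups with the Cbp20 line.

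All 7 genes were read in every library. Per kilobase of annotated exon in Control GD, crq had the highest level at 73.6 ± 3.23 CPM per kb (SD, n = 3), followed by drpr (38.0 ± 0.578), Sr-CI (20.9 ± 1.89), Hml (17.9 ± 1.22), NimC1 (10.99 ± 0.623), eater (4.02 ± 0.454) and He (1.21 ± 0.242). He was the least sampled, with 4 to 23 reads a library, and 3 reads correspond to 0.104 to 0.169 CPM at these depths. The other 6 genes had at least 106 reads in each library. NimC1 lies on chromosome 2L at 13973158 to 13976769 on the minus strand, eater on 3R at 27095867 to 27099679, Hml on 3L at 13846054 to 13860001, crq on 2L at 448254 to 453024, Sr-CI on 2L at 4121702 to 4124153, drpr on 3L at 1715595 to 1731107 and He on 2L at 13972096 to 13972947, in the Release 6 assembly of the fly genome. Other annotated genes overlap 3 of them, namely crq (ex), He (NimB5, on the other strand) and drpr (CG18171, Oseg4 and CG12035), and since the strand setting of the counting is not given in the sources used here, reads of overlapping genes may not have been told apart.

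**Figure D1:**
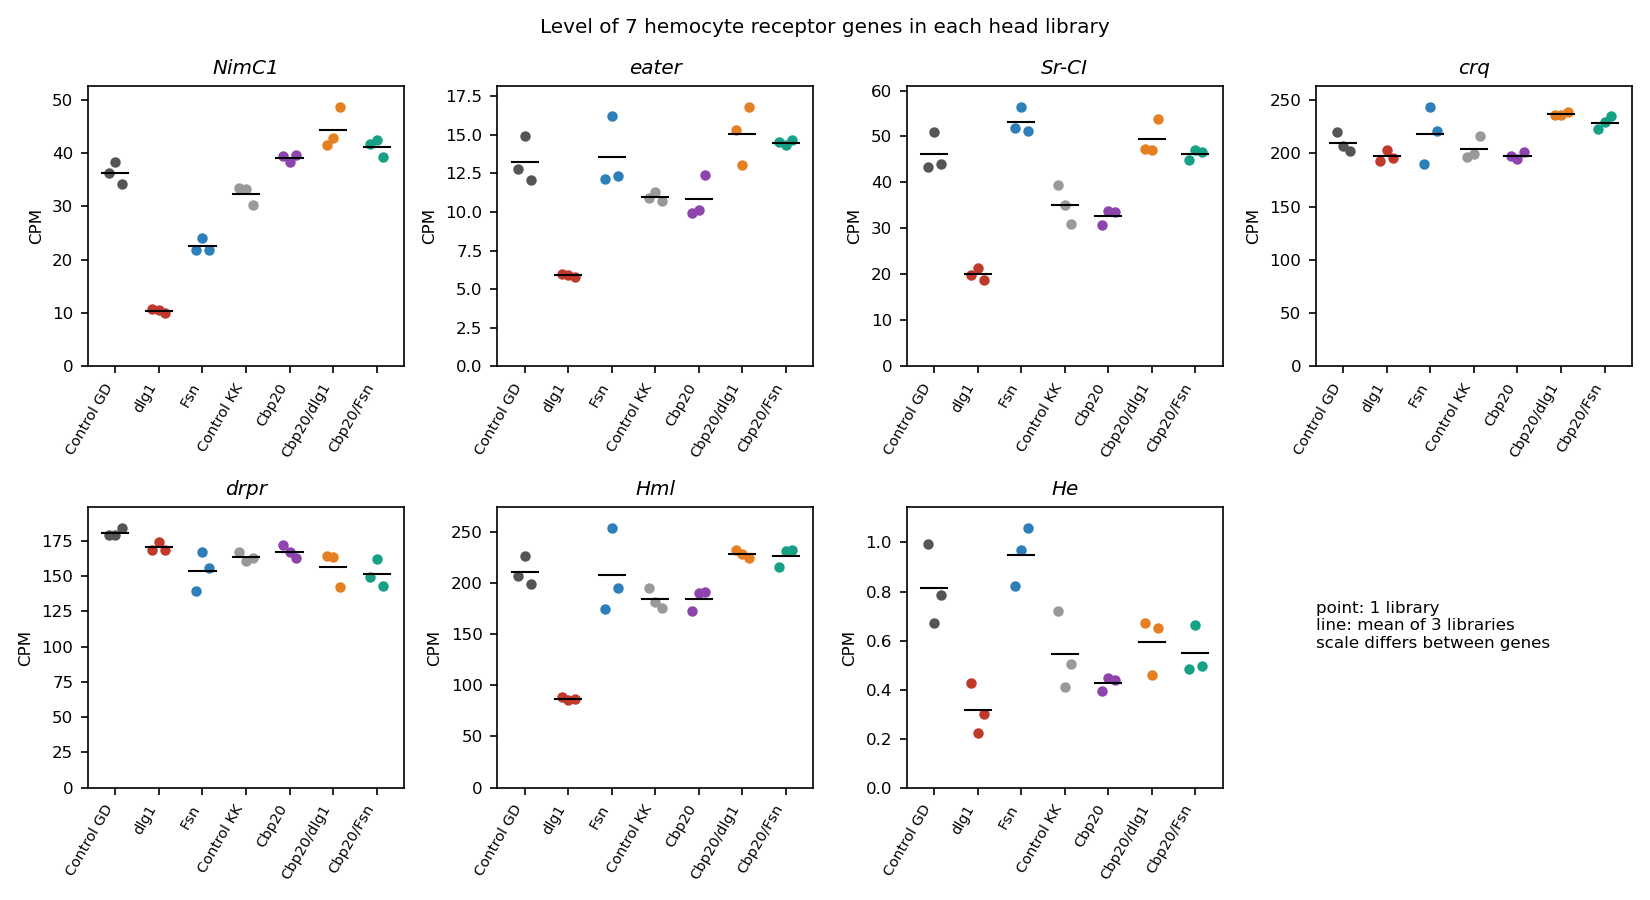
Level of each gene, in CPM, in each of the 21 head libraries, on linear axes that start at 0 and differ between genes. Points are libraries and lines are the means of 3. The 3 dlg1 libraries are the lowest of all for NimC1, eater, Sr-CI and Hml, whereas crq and drpr stay within a narrow range.

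In dlg1 flies, 5 of the 7 genes were low together, and 2 were close to Control GD. NimC1, which encodes a receptor for bacteria on plasmatocytes, was at 36.2, 38.3 and 34.1 CPM in Control GD and at 10.8, 10.5 and 9.93 CPM in dlg1. The dlg1 libraries were 28.8% of Control GD on average and did not overlap with it. The fitted log2 fold change was -1.80 ± 0.07 (SE). The level of eater, the other Nimrod receptor for bacteria, was 12.8, 14.95 and 12.1 CPM in Control GD and 5.95, 5.94 and 5.79 in dlg1, or 44.4% of Control GD. Sr-CI, a scavenger receptor that binds bacteria, was at 43.4, 50.9 and 43.9 CPM in Control GD and at 19.9, 21.5 and 18.7 in dlg1 (43.4%). These 2 genes again had no overlap between the groups and log2 fold changes of -1.17 ± 0.12 for eater and -1.20 ± 0.09 for Sr-CI.

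Hml, the most widely used marker of differentiated plasmatocytes, was at 207, 226 and 198 CPM in Control GD and at 88.2, 85.8 and 86.5 in dlg1, a log2 fold change of -1.28 ± 0.10. He, a marker of hemocytes in general, was at 0.992, 0.671 and 0.785 CPM in Control GD and at 0.428, 0.224 and 0.299 in dlg1, with a log2 fold change of -1.32 ± 0.30. Both separated the groups, although the dlg1 values of He lay within a few reads of the counting floor. By contrast, crq, a CD36-family receptor for apoptotic cells, was at 193 to 203 CPM in dlg1 and 202 to 220 in Control GD. The engulfment receptor drpr, which glia also use to clear neuronal debris, was at 169 to 174 CPM in dlg1 and 179 to 184 in Control GD. Their log2 fold changes were -0.09 ± 0.07 for each, and the mean of drpr in dlg1 was 94.2% of that in Control GD, with no overlap.

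A gene was called when its fitted change exceeded 1 log2 unit in either direction at a false discovery rate under 0.05. By these criteria 1.96% of the 10558 genes tested were called in dlg1 against Control GD, and 9.26% passed the false discovery rate alone. Of the 7 genes 5 met both criteria, a count from the contrast that selected NimC1, and nothing is read from it. Against Control KK in place of Control GD, 2 of the 7 met both criteria, NimC1 (-1.64) and Hml (-1.08), and eater (-0.90), Sr-CI (-0.81) and He (-0.75) were lower by less than the fold-change limit. The share of all genes that met the criteria against Control KK was not counted, and nothing is read from this count either. In heads, fewer hemocytes and less RNA per hemocyte cannot be told apart, and the part of other tissues in these values was not tested.

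Relative to Hml in the same library, NimC1 was lower in dlg1 than in Control GD, while eater and Sr-CI were not. There were 6.16, 6.60 and 6.09 eater reads per 100 Hml reads in Control GD and 6.75, 6.93 and 6.69 in dlg1. Sr-CI gave 20.96, 22.5 and 22.1 reads per 100 Hml reads in Control GD and 22.6, 25.0 and 21.6 in dlg1. NimC1 gave 17.5, 16.9 and 17.2 in Control GD and 12.2, 12.3 and 11.5 in dlg1, with no overlap. Reads of crq per 100 Hml reads were 91.2 to 106 in Control GD and 218 to 237 in dlg1, as Hml was low and crq was not.

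**Figure D2:**
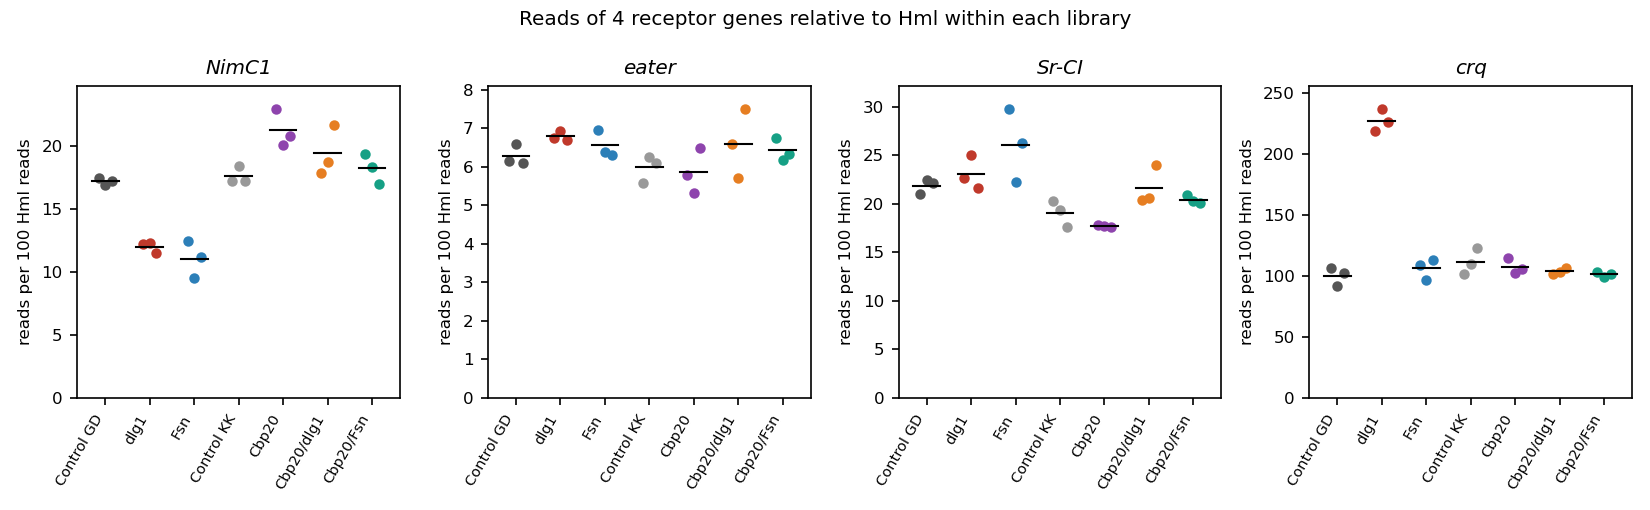
Reads of NimC1, eater, Sr-CI and crq per 100 reads of Hml in the same library, for each of the 21 libraries, with group means as lines and axes starting at 0. NimC1 is lowest in dlg1 and Fsn, at 11.5 to 12.3 and 9.52 to 12.5 reads, while eater stays between 5.31 and 7.50 in every library.

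Other hemocyte genes were read from lists of markers and gene families, and the dlg1 values are again a description. Among 8 plasmatocyte markers outside the set, 3 were called lower in dlg1 and none higher, beside 1.96% of all genes tested called in either direction. The lists were chosen with earlier results of these data known, and nothing is read from the count. The list had a median log2 fold change of -0.25 beside 0.01 over all genes tested. The 3 encode extracellular matrix proteins. Ppn (papilin) was at 415, 445 and 415 CPM in Control GD and 181, 186 and 198 in dlg1, Col4a1, a type IV collagen chain, at 390 to 396 and 179 to 183, and vkg, the partner collagen chain, at 221 to 229 and 109 to 117. The groups were far apart for all 3. The GATA factor srp, which specifies hemocytes, had a log2 fold change of -0.28, while Pxn, ush, Tig and Pvr were between -0.23 and -0.04. PPO2, a prophenoloxidase of crystal cells, was at 85.4, 93.1 and 98.3 CPM in Control GD and 31.7, 42.4 and 30.6 in dlg1, a log2 fold change of -1.41. The other crystal cell genes, lz and peb, went the other way, with log2 fold changes of 0.37 and 0.23, and the list's median was 0.23. The summed crystal cell list (3 genes) was 149 to 158 CPM in Control GD and 104.6 to 114.9 in dlg1. The 4 lamellocyte genes tested had no call in either direction.

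Of the 12 Nimrod genes, 4 were called lower in dlg1 and none higher, beside 1.96% of all genes tested called in either direction. This contrast selected NimC1, which is among the 4, and nothing is read from the count. NimC4, known as a receptor for apoptotic cells in embryonic glia and macrophages, was at 7.85, 6.23 and 7.07 CPM in Control GD and 2.57, 1.29 and 0.848 in dlg1. NimB4, which encodes a secreted member of the family, was at 16.3, 17.6 and 16.4 and at 8.996, 8.58 and 6.88. NimC1 and eater were the other 2. NimB1, NimB2, NimB5 and NimC2 had log2 fold changes between -0.97 and -0.61, and the values were 0.72 for NimA, 0.35 for NimC3, -0.46 for NimB3 and -0.09 for drpr. NimC4 was also low in Fsn (2.84 to 3.83 CPM) and Control KK (1.73 to 2.31), groups in which the antennal genes were low. In Cbp20/dlg1 NimC4 was at 2.65 to 2.86 CPM, and there the summed antennal genes were at 24.2 to 79.1 CPM. The part of the antennal genes in the NimC4 values was not tested. Nor was their part in the values of eater and Hml. Among 7 glial markers, only alrm was called in dlg1, at 62.0 to 66.1 CPM in Control GD and 24.9 to 32.2 in dlg1. The log2 fold changes of the others ran from -0.43 for nrv2 to 0.14 for wrapper. Glial marker sums were 2340 to 2355 CPM in Control GD and 2012 to 2067 in dlg1, and whether this bears on the hemocyte genes was not tested.

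**Figure D3:**
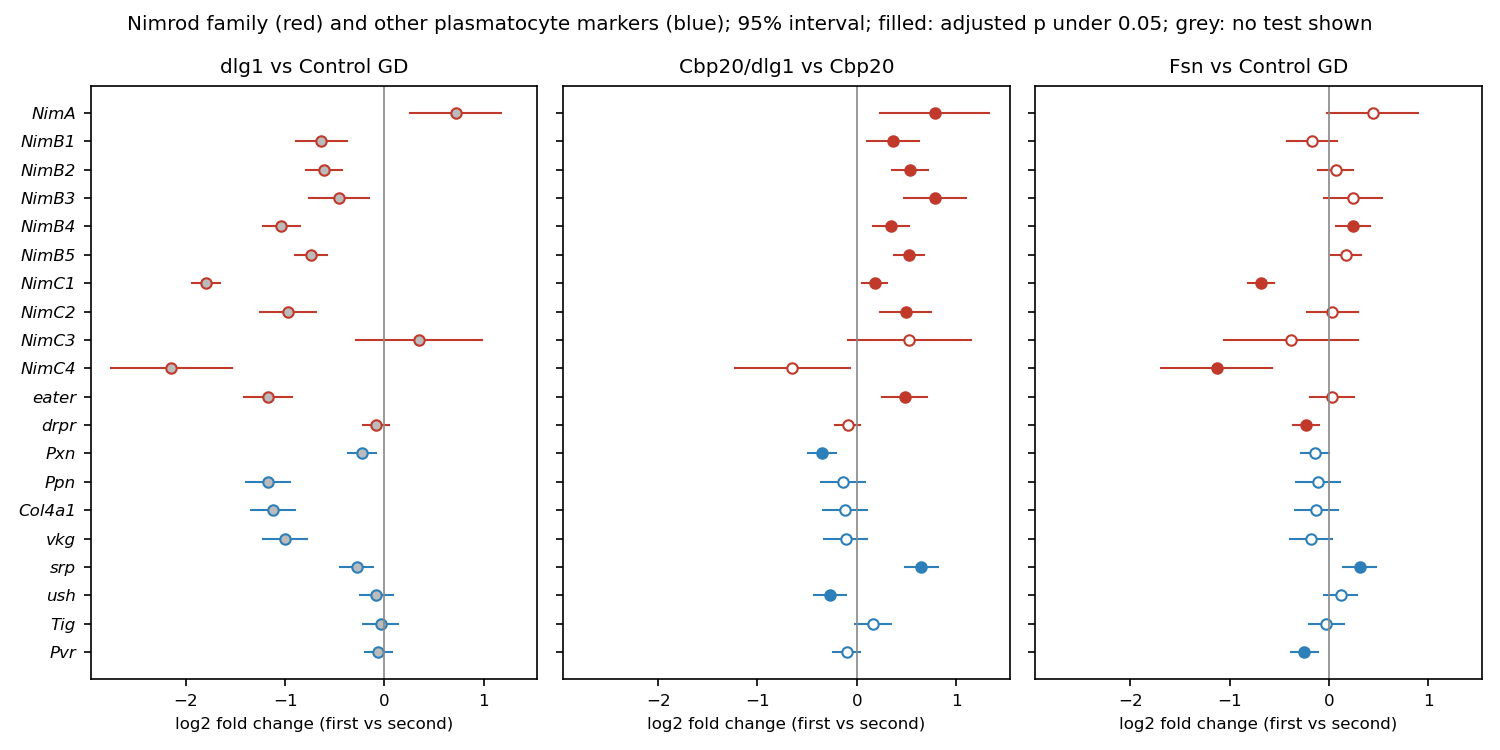
Fitted log2 fold changes with 95% intervals for 12 Nimrod genes (red) and 8 plasmatocyte markers outside the set (blue) in dlg1 against Control GD, Cbp20/dlg1 against Cbp20, and Fsn against Control GD. Filled points passed edgeR's adjusted p of 0.05, and grey points in the first panel are shown without a test. NimC1 and NimC4 have the lowest values in the first panel, and NimC1, NimC4 and drpr are the Nimrod genes past the test on the lower side in the third.

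NimC1 sits in a cluster of Nimrod genes, so its neighbors were read in the same way. On one side He lies 211 bp away, followed by NimB5 and NimB4, and on the other side are Cyp28a5 at 533 bp, NimC2 and rk. In dlg1 the log2 fold changes of these neighbors were -1.32 for He, -0.74 for NimB5, -1.04 for NimB4, -0.23 for Cyp28a5, -0.97 for NimC2 and 0.38 for rk. In Fsn flies, where NimC1 was lower, the values of the neighbors ran from -0.03 for rk to 0.24 for NimB4, and NimB4 (edgeR adjusted p = 0.0391) and Cyp28a5 (0.21, edgeR adjusted p = 0.0160) were higher past the test. Cyp28a5, a cytochrome P450 gene, was called lower in Control KK than in Control GD, at 45.7 to 47.7 CPM against 90.2 to 99.5.

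The first comparison that the selection did not use was Fsn against Control GD, which shares its control libraries with the dlg1 contrast. NimC1 was at 21.8, 24.1 and 21.8 CPM in Fsn flies, below all 3 Control GD libraries and above all 3 dlg1 libraries. It fell to 62.3% of Control GD, with a log2 fold change of -0.68 ± 0.07 (edgeR quasi-likelihood test, Benjamini-Hochberg adjusted p = 1.61e-06). With all 3 Fsn libraries Hml did not pass the test (edgeR adjusted p = 0.870). Its values were 174, 253 and 195 CPM in Fsn, around those of Control GD, and the 95% interval of its log2 fold change was -0.21 to 0.16. The interval for eater was -0.19 to 0.25 and for crq -0.08 to 0.19. Sr-CI was at 51.9, 56.5 and 51.1 CPM in Fsn, higher than every Control GD library, but did not pass the test (log2 fold change 0.21 ± 0.08, edgeR adjusted p = 0.0581). He was at 0.821 to 1.06 CPM, overlapping Control GD.

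In the same comparison drpr fell by 0.23 on the log2 scale (edgeR adjusted p = 0.0104), from 179 to 184 CPM in Control GD to 139, 167 and 156 in Fsn. Without Fsn replicate 1, the lowest library, its adjusted p was 0.0521. Without Fsn replicate 2, Hml passed the test (log2 fold change -0.19, edgeR adjusted p = 0.0299), and without Control GD replicate 2 Sr-CI did (0.28, edgeR adjusted p = 0.0264). NimC1 and drpr were thus the 2 of 7 genes past a false discovery rate of 0.05, a criterion met by 38.2% of all genes tested in this comparison, and neither reached the fold-change criterion, met together with the false discovery rate by 2.41%. Neuronal markers were lower in Fsn (5 of 6, sums of 3021 to 4370 CPM against 4811 to 5165 in Control GD) and fat body markers were higher (5 of 7, 51193 to 69400 CPM against 26505 to 32768). All 6 antennal genes were lower too, with sums of 6.67 to 9.30 CPM in Fsn against 30.4 to 96.9 in Control GD. Of the 4 muscle genes tested 3 were lower, and of 5 photoreceptor genes 3 were lower and 1 was higher. The part of these tissue markers in the NimC1 and drpr values was not tested. With Control KK in place of Control GD, NimC1 stayed lower (-0.52), drpr did not pass (-0.09, edgeR adjusted p = 0.340), and Sr-CI (0.60, edgeR adjusted p = 4.73e-05) and He (0.79, edgeR adjusted p = 0.0373) were higher. With the first sequencing batch alone, drpr was at -0.18 (edgeR adjusted p = 0.0821) and Sr-CI at 0.29 (edgeR adjusted p = 0.0435).

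The change of NimC1 relative to Hml was examined within libraries. In Fsn flies 12.5, 9.52 and 11.2 NimC1 reads were counted per 100 Hml reads, each lower than the 16.9 to 17.5 of Control GD. A difference of this kind between 3 libraries and 3 gives a two-sided exact permutation p of 0.1, the smallest that the design allows, and 0.233 after Benjamini-Hochberg adjustment over 7 comparisons. The other groups without overlap were Cbp20 with 22.9, 20.1 and 20.8 reads against 17.2 to 18.4 in Control KK, and Cbp20/Fsn with 16.96 to 19.4 reads against Cbp20, with the same exact p. The remaining 4 comparisons overlapped, with exact permutation p from 0.2 to 0.7.

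The 2 control groups were then compared, since they differ in background and neither carries RNAi against the targeted genes. Sr-CI was at 39.5, 35.0 and 31.0 CPM in Control KK, below the 43.4 to 50.9 of Control GD (log2 fold change -0.39 ± 0.08, edgeR adjusted p = 0.00223). It was 1 of the 7 genes past a false discovery rate of 0.05, beside 20.9% of all genes, and none met both criteria, beside 3.36%. NimC1 (30.3 to 33.5 CPM), eater (10.7 to 11.3), Hml (176 to 195) and drpr (161 to 167) were each lower in all 3 Control KK libraries than in any Control GD library, with log2 fold changes of -0.16, -0.27, -0.20 and -0.15 that did not pass the test (edgeR adjusted p from 0.0898 to 0.153). The share of all genes separated in this way was not counted. He was at 0.410 to 0.722 CPM in Control KK and crq at 197 to 216, both overlapping Control GD.

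Between Cbp20 flies and Control KK, NimC1 was the member of the set that passed the test. It was at 39.5, 38.2 and 39.6 CPM against 33.5, 33.3 and 30.3, a rise of 0.27 ± 0.07 on the log2 scale (edgeR adjusted p = 0.0047), with no overlap between the groups. This was 1 of 7 genes past the false discovery rate, beside 21.6% of all genes, and none met both criteria, beside 3.24%. Hml was at 172, 191 and 191 CPM in Cbp20 flies, with a 95% interval of its log2 fold change from -0.18 to 0.19, and the interval for eater was -0.25 to 0.20. Set against Control GD, the NimC1 difference of Cbp20 flies was 0.11 and did not pass the test (edgeR adjusted p = 0.253). Markers of other tissues differed between Cbp20 flies and Control KK. All 6 antennal genes were higher (sums of 22.3 to 94.8 CPM against 5.63 to 6.42), as were the 4 muscle genes tested (sums over the list's 5 genes of 6593 to 8547 CPM against 5483 to 6103), and 5 of 7 fat body genes were lower (18826 to 24688 CPM against 45132 to 54377). Their part in the NimC1 value was not tested.

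Where the dlg1 line was added to Cbp20 knockdown, 5 of the 7 genes (eater, Sr-CI, Hml, crq and NimC1) were higher than in Cbp20 flies at a false discovery rate of 0.05, beside 32.2% of all genes tested. In Cbp20/dlg1 flies eater was at 15.3, 13.03 and 16.8 CPM against 9.94, 10.1 and 12.4 in Cbp20 (log2 fold change 0.48 ± 0.11, edgeR adjusted p = 0.00339). Sr-CI was at 47.3, 47.1 and 53.8 CPM against 30.6, 33.7 and 33.6 (0.60 ± 0.08, edgeR adjusted p = 2.44e-05). The Cbp20/dlg1 libraries were above all Cbp20 libraries for both receptors. Hml was at 232, 229 and 224 CPM against 172, 191 and 191, a log2 fold change of 0.31 ± 0.09 (edgeR adjusted p = 0.0171), which was lost without Cbp20 replicate 1 (edgeR adjusted p = 0.0791). For crq the values were 236, 236 and 239 CPM against 197, 195 and 201 (0.26 ± 0.07, edgeR adjusted p = 0.0063).

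NimC1 was at 41.5, 42.8 and 48.7 CPM in Cbp20/dlg1, above the 38.2 to 39.6 of Cbp20. Its log2 fold change was small, 0.18 ± 0.06 (edgeR adjusted p = 0.0413). NimC1 did not pass the test when any one of the 3 Cbp20 libraries, or Cbp20/dlg1 replicate 3, was left out (edgeR adjusted p from 0.0650 to 0.263). None of the 7 genes met both criteria, beside 4.35% of all genes tested. The 5 became 3 without Cbp20 replicate 1. He, at 0.458 to 0.672 CPM, was above every Cbp20 library without passing the test (0.48 ± 0.29, edgeR adjusted p = 0.282), and drpr, at 142 to 165 CPM, overlapped Cbp20.

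Of the 12 Nimrod genes, 9 were higher in Cbp20/dlg1 than in Cbp20 at a false discovery rate of 0.05 and none was lower, beside 32.2% of all genes tested. The 9 include eater and NimC1. NimC4 was at -0.65 and did not pass the test. NimB3 and NimA had the highest log2 fold changes of the family, at 0.79 each. The matrix genes did not follow: Ppn was at 387 to 504 CPM against 472 to 530, and the log2 fold changes of Ppn, Col4a1 and vkg were between -0.14 and -0.11. Of the 8 plasmatocyte markers 1 was higher (srp, 0.65) and 2 were lower (Pxn, -0.35, and ush, -0.27), while the list's median was -0.11. Of the crystal cell genes, PPO2 rose by 0.33 (edgeR adjusted p = 0.0389), while lz (-0.03) and peb (-0.34) did not pass the test. One gene of the CD36 family, dsb, met both criteria, with a log2 fold change of 1.06. Fat body markers were higher in the same comparison (5 of 7, sums of 36982 to 48373 CPM against 18826 to 24688), and their part in the hemocyte gene values was not tested.

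**Figure D4:**
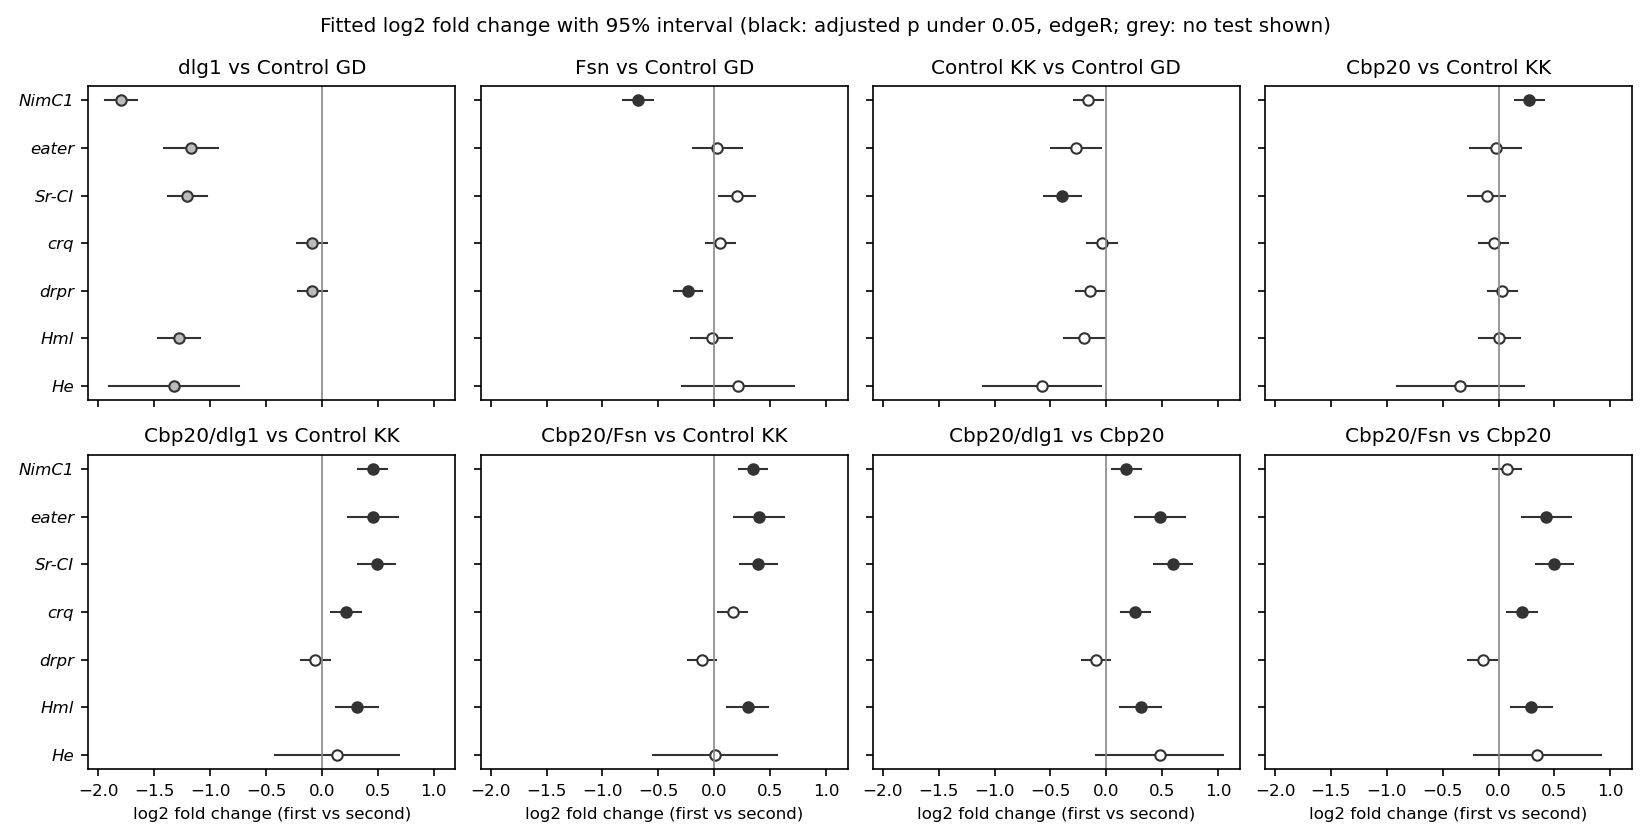
Fitted log2 fold changes of the 7 genes with 95% intervals in 8 comparisons, first group against second. Black points passed an adjusted p of 0.05 in edgeR, white points did not, and the grey points of dlg1 against Control GD are shown without a test. The dlg1 panel has 5 genes near or below -1.17, while the 4 panels of the pairwise knockdowns have NimC1, eater, Sr-CI, crq and Hml at or above 0.

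Against Control KK, the Cbp20/dlg1 libraries were higher for NimC1 (log2 fold change 0.45 ± 0.07, edgeR adjusted p = 9.74e-05), Sr-CI (0.49 ± 0.08, edgeR adjusted p = 0.000528) and eater (0.46 ± 0.11, edgeR adjusted p = 0.0108, or 0.0697 without Cbp20/dlg1 replicate 3). Hml (0.31, edgeR adjusted p = 0.0313) and crq (0.22, edgeR adjusted p = 0.0399) passed too, but each failed the test in 5 of the 6 comparisons that left out a library. For Hml these were all but the one without Control KK replicate 1 (edgeR adjusted p from 0.0638 to 0.109), and for crq all but the one without Control KK replicate 3 (0.0735 to 0.152). Thus 5 of 7 genes passed the false discovery rate, beside 13.1% of all genes, and none met both criteria, beside 2.03%. Without Cbp20/dlg1 replicate 3 the count was 2, and without Cbp20/dlg1 replicate 1, Cbp20/dlg1 replicate 2 or Control KK replicate 2 it was 3. With Control GD in place of Control KK, NimC1 stayed higher (0.29, edgeR adjusted p = 0.00359), while Sr-CI (0.10), eater (0.18), Hml (0.12) and crq (0.18) did not pass the test and drpr was lower (-0.21, edgeR adjusted p = 0.0328).

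Cbp20/Fsn flies had a similar order of values. NimC1 was at 41.7, 42.5 and 39.3 CPM, eater at 14.5, 14.3 and 14.7, Sr-CI at 44.9, 47.1 and 46.5, Hml at 215, 232 and 232 and crq at 223, 229 and 235. All of these lay above Control KK. The log2 fold changes against Control KK were 0.35 ± 0.07 for NimC1 (edgeR adjusted p = 0.00111), 0.39 ± 0.08 for Sr-CI (edgeR adjusted p = 0.00317), 0.40 ± 0.11 for eater (edgeR adjusted p = 0.0202) and 0.30 ± 0.09 for Hml (edgeR adjusted p = 0.0346). The test was not passed by eater without Cbp20/Fsn replicate 3, Control KK replicate 1 or Control KK replicate 3 (edgeR adjusted p from 0.0636 to 0.0660), or by Hml without replicate 2 or 3 of either group (0.0795 to 0.115). The 4 genes stood beside 17.1% of all genes at that rate, and 0 beside 3% met both criteria. Without Cbp20/Fsn replicate 3 or Control KK replicate 3 the count was 2. With Control GD in place of Control KK none of the 4 passed: NimC1 differed by 0.19 (edgeR adjusted p = 0.0506), eater by 0.13, Hml by 0.10 and Sr-CI by 0.00, while drpr was lower (-0.25, edgeR adjusted p = 0.0109).

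Against Cbp20, the Cbp20/Fsn libraries were higher for Sr-CI (log2 fold change 0.50 ± 0.08, edgeR adjusted p = 0.000228), eater (0.43 ± 0.11, edgeR adjusted p = 0.00888), Hml (0.29 ± 0.09, edgeR adjusted p = 0.0247) and crq (0.21 ± 0.07, edgeR adjusted p = 0.0251), and these 4 stood beside 29.2% of all genes, with none meeting both criteria beside 4.21%. Hml was lost without Cbp20 replicate 1 or Cbp20/Fsn replicate 2 or 3 (edgeR adjusted p from 0.0584 to 0.0931), and crq without Cbp20 replicate 1 or 2 or Cbp20/Fsn replicate 3 (0.0542 to 0.0829). The count was 2 without Cbp20 replicate 1 and without Cbp20/Fsn replicate 3. NimC1 was not among them. Its values overlapped those of Cbp20, and the 95% interval of the log2 fold change was -0.05 to 0.20. The comparisons with Cbp20 share the Cbp20 libraries and those with Control KK share the Control KK libraries.

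The difference that went with the Fsn line was compared between flies without and with the Cbp20 line, as a difference of differences. Cbp20/Fsn and Cbp20 flies also differ in background, and the added line and the background cannot be told apart in it. NimC1 fell by 0.68 with Fsn alone and differed by 0.07 when Fsn was added to Cbp20 knockdown, and the difference of 0.76 ± 0.09 passed the test (edgeR adjusted p = 3.91e-05). It was 1 of 7 genes to pass, beside 6.72% of all genes, and 0 met both criteria, beside 2.6%. The count was 3 without Fsn replicate 2, when eater (0.55, edgeR adjusted p = 0.0246) and Hml (0.48, edgeR adjusted p = 0.00305) also passed. With all libraries the values were 0.40 for eater, 0.32 for Hml, 0.29 for Sr-CI, 0.15 for crq, 0.13 for He and 0.09 for drpr. The same quantity for the dlg1 line is given as values only, because it contains the contrast that chose the genes: 1.98 for NimC1, 1.80 for Sr-CI, 1.80 for He, 1.65 for eater, 1.59 for Hml, 0.35 for crq and -0.01 for drpr.

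Over the 7 groups the order of mean NimC1 levels was Cbp20/dlg1 (44.3 CPM), Cbp20/Fsn (41.2), Cbp20 (39.1), Control GD (36.2), Control KK (32.4), Fsn (22.6) and dlg1 (10.4). The first 4 overlapped with their neighbors in this order, and the last 3 were separated from each neighbor. For eater, Hml and Sr-CI the dlg1 libraries were also at the bottom, below every other library. Hml had no other gap between neighbors, eater had 1 more, between Control GD and Control KK, and Sr-CI had 2 more, below Cbp20/dlg1 and below Control GD. The order for crq ran from 237 CPM in Cbp20/dlg1 to 197 in dlg1, with 1 gap between neighbors, below Cbp20/dlg1. For He all neighbors overlapped, from 0.950 CPM in Fsn to 0.317 in dlg1. For drpr the mean was highest in Control GD (181 CPM) and lowest in Cbp20/Fsn (152), with a gap only below Control GD.

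The genes whose patterns were most like each of the 7 were ranked by Pearson's r of log2(CPM + 0.5) over the 21 libraries, among 9466 genes. These libraries share their groups, so r is a description. NimC1 was most like Gat (0.94), a GABA transporter gene, wun2 (0.93), a lipid phosphatase gene, LanA (0.93), a laminin chain gene, CG10560 (0.93) and Tsp5D (0.92). Over the 18 libraries other than dlg1, the values for these 5 genes were 0.54 to 0.69. Its r with Hml was 0.89 over 21 libraries and 0.31 over 18, and with Sr-CI 0.70 and -0.19. For eater and Hml the r was 0.97 over 21 libraries and 0.87 over 18.

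The nearest genes to eater were Hml, CG42711 and Karl (0.97 to 0.96), and those to Hml were Karl, eater and NtR (0.97). Sr-CI was closest to NimB4, CG17574 and eater (0.96 to 0.94). The lists for crq (Tsp39D, CG5381 and akirin, 0.85 to 0.83) and He (santa-maria, NimB4 and CG4927, 0.83 to 0.80) had lower values. The genes nearest to drpr were rgn, CG6051 and hig (0.97 to 0.93), and none of its pairings with NimC1, eater, Hml, crq and Sr-CI had a positive r over 21 libraries (-0.36 to -0.18).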

How the data were processed

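Raw read counts per gene were deposited by the authors, who trimmed reads with Trimmomatic 0.36, aligned them with TopHat2 2.1.1 to Release 6 of the fly genome and counted with HTSeq 0.6.1 after a stranded mRNA library preparation. Each library had 2 (4 libraries) or 3 (17 libraries) sequencing batch columns, which were summed. Summary lines of the counter (no feature, 10.2% to 14.6%, and ambiguous, 2.09% to 2.88%) were left out of library sizes. Symbols matched 17252 of 17559 gene IDs. Positions came from a later annotation of the same assembly. edgeR 4.0.16 (R 4.3.3) was fitted to all 21 libraries after its default low-count filter (10558 genes, all 7 members included), with TMM scaling, the quasi-likelihood test and Benjamini-Hochberg adjustment over all genes. CPM used the TMM library sizes, ± is the SD for levels and the SE for fold changes, and intervals are normal 95% intervals. Simulated counts were used to check the fit. Libraries are called biological replicates by the study. The members and the gene lists were chosen with earlier results of these data known. Genes were named as members, as called members of a list, as the 5 (NimC1) or 3 most similar genes of at least 1 CPM, or as the 3 neighbors on each side of NimC1. PPO1 and scb were not analysed here. Alternatives were RLE scaling, DESeq2 1.42.0, no filter, a replicate block, the false discovery rate alone, the first batch, the other control, and leaving out each library. The 18-library correlations were added after seeing the data.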

Additional observations from a re-analysis of the deposited data

Results flagged for a closer look

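The NimC1 difference between Cbp20/Fsn and Cbp20 was 0.76 higher on the log2 scale than that between Fsn and Control GD (edgeR adjusted p = 3.91e-05). Cbp20/Fsn and Cbp20 flies also differ in background, and the added line and the background cannot be told apart. For the 5 genes low in dlg1, all dlg1 libraries were below Control GD and all Cbp20/dlg1 libraries were above Cbp20. The share of all genes that do both was not counted, and nothing is read from this. For He the gap was small, 0.458 CPM (9 reads) in Cbp20/dlg1 above 0.446 CPM (13 reads) in Cbp20. The difference between the log2 fold changes of these comparisons was 1.98 for NimC1, 1.65 for eater, 1.59 for Hml, 1.80 for He and 1.80 for Sr-CI. It contains the contrast that selected NimC1 and was not tested. He did not pass in Cbp20/dlg1 against Cbp20 (edgeR adjusted p = 0.282). There NimC1 no longer passed when any one of 4 libraries was left out, or under RLE scaling, DESeq2, no filter or the first batch alone.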

How the results depend on the processing

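Sequencing depth limited He most, with 4 to 23 reads a library, and it could not be fitted with the first batch alone. No value that passed the test changed sign. Values that did not pass changed sign in some settings, such as drpr in dlg1 (-0.09, and 0.06 against Control KK) and He in Cbp20/dlg1 (0.13, and -0.44 against Control GD). The false discovery rate alone, without a fold-change limit, gave 2 genes in Fsn flies, 1 in Cbp20 flies, and 5 (Cbp20/dlg1) and 4 (Cbp20/Fsn) in the pairwise knockdowns against their controls, 1 for Control KK against Control GD, 5 for Cbp20/dlg1 and 4 for Cbp20/Fsn against Cbp20, and 1 for the Fsn difference, where both criteria gave 0. With the control of the other background, dlg1 had 2 genes at both criteria in place of 5, and at the false discovery rate alone Fsn had 3 (NimC1 lower, Sr-CI and He higher), Cbp20 2 (He and Sr-CI, lower), Cbp20/dlg1 2 (NimC1 higher, drpr lower) and Cbp20/Fsn 1 (drpr, lower). The shares of all genes with the other control were not counted. With the first batch only, the counts were 3 for Cbp20/dlg1 and 2 for Cbp20/Fsn against Control KK, and 0 for Control KK against Control GD. DESeq2 put 1 of 63 single-gene results on the other side of the threshold, RLE scaling 2 and no filter 1. Each included NimC1 in Cbp20/dlg1 against Cbp20 (log2 fold change 0.16, 0.16 and 0.17). In the fits that left out a library, dlg1 had 4 to 5 genes at both criteria (He dropped out without dlg1 replicate 2), and counts at the false discovery rate were 1 to 3 in Fsn flies and 1 in Cbp20 flies, 2 to 4 in each pairwise knockdown against Control KK, 1 for Control KK against Control GD, 3 to 5 and 2 to 4 for Cbp20/dlg1 and Cbp20/Fsn against Cbp20, and 1 to 3 for the Fsn difference. Replicate numbers did not pair the libraries (mean correlation of same-numbered deviations -0.02 over 63 pairs), and the replicate block changed none of the 63 single-gene results, with NimC1 at -1.80 in dlg1 and -0.68 in Fsn.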
